A study of Mus musculus with 10 samples.

Results

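A tandem transcription start is a first exon that begins at several positions, so that its transcripts share the downstream part of the exon and differ in how far upstream they reach. The splicing table of pancreatic islets cuts such an exon into adjoining pieces, each from 1 annotated start to the next, and gives each piece a proportion spliced in (PSI). The regions described here are the tandem starts with a piece length of at least 50 nt. They number 9836 of the 167895 events in the table and lie in 6021 genes, with 1 such region in 2915 genes, 2 in 2558 and 3 or more in 548. Another 9819 tandem starts were shorter.

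The islets came from 5 male NZO mice (NZO/HiBomDife), an obese strain that becomes diabetic, and from 5 male B6-ob/ob mice (C57BL/6J.V-Lepob/ob), which are obese through the loss of leptin and stay free of diabetes. Both groups were 18 weeks old, had been fed a carbohydrate-free high-fat diet and were then given carbohydrates for 2 days. The labels call the tissue pancreas, whereas the study's methods describe isolated islets. The beta cell genes Ins2 and Ins1 had mean normalized counts of 6676905 and 2581829 over all libraries, and the 10 acinar markers summed to 1261. The strains differ throughout their genomes, so strain background and diabetes cannot be told apart. In bulk islets, nor can a different mix of cell types and a different use of starts within a cell. The PSI values are the authors' pooled values, 1 per strain. There is therefore no spread between mice, no difference below was tested, and a PSI difference over 0.1 is a limit of size and not of significance. Differences are NZO minus B6-ob/ob.

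The start of a first exon is set by the core promoter, where RNA polymerase II assembles. Promoters rich in CpG dinucleotides usually start transcription over a spread of positions, while promoters with a TATA box tend to start at a narrow one. The choice among the starts of an exon leaves the splice sites alone. It changes the length of the 5' leader, the stretch ahead of the coding sequence that ribosomes scan, and it can also change the protein where a start codon lies between the starts.

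The pieces of an exon are read together. In the 3216 exons with 2 adjoining pieces, the PSI values summed to 1 within 0.02 in 99.8% of exons in NZO and in 99.8% of exons in B6-ob/ob. In the 3061 exons with more pieces, the median sum was 1.05 in NZO, against 1.04 in B6-ob/ob. In exons of 2 pieces a PSI therefore reads as the share of the exon's starts that lie at the upstream end of that piece, and a higher PSI of 1 piece in NZO comes with a lower one of its neighbour. In longer exons this holds only as far as the sum stays near 1. Among the genes below, the sum was 1.46 in NZO, against 1.55 in B6-ob/ob for Tcf7l2, and 1.16 in NZO, against 1.23 in B6-ob/ob for Cacna1c. In the strain with the higher sum it was 1.15 for Hdac10 and Dusp12, 1.13 for Dnajb6 and Dlc1, 1.12 for Rab14, Hipk1 and Skp2 and 1.11 for Ddb2. The PSI values of these 10 genes are not shares. In Irak4, Hipk1, Dlc1 and Tcf7l2, several pieces little used in a strain had nearly the same low PSI. A low PSI in such exons need not mean minor use of the start. Not every region is at the front of its gene: of the 9326 in protein-coding genes, 1208 (13.0%) begin behind the gene's most upstream annotated start codon. Of these 26.7% were past 0.1, against 24.1% of the regions ahead of it. The regions of Mecom, Dcun1d1, Rab28, Wwp2, Igf1r, Setd4, Kcnq1, Git2, Gnas, Rpl10, Spaca6, Lcorl and Hook3 given below begin behind it. So do start 2 of Mrpl28, of Fat4 and of Pcdh17, start 3 of Rtl5 and start 8 of Tcf7l2. The starts are numbered below from the most upstream one. The length of a piece says how far it reaches to the next start or to the end of the exon, not how far transcription moved. The starts are annotated positions with PSI from RNAseq reads, and the study's methods name no capture of transcript ends.

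Windows around the starts of the genes with the largest differences are shown because they set the competing positions side by side. Each window runs from base -29 to base +1 of a start on GRCm38 (mm10), 5' to 3', in the C57BL/6J reference sequence from GENCODE M21 transcripts and the RefSeq promoter table. Capitals mark bases -1 and +1, and TATAA where it occurs.
Prpf38b start 1 (chr3:108911727-108911756, minus strand): cgtatggcgtcacttccgctggccccgcCA
Prpf38b start 2 (chr3:108911710-108911739, minus strand): gctggccccgccatcttgttcccaggggCA
Srsf2 start 1 (chr11:116853094-116853123, minus strand): TATAAatgcgcgctggggcccgcccgctCG
Srsf2 start 2 (chr11:116853072-116853101, minus strand): cccgctcgcttagttgctgctcaggcgtCC
Shq1 start 1 (chr6:100671157-100671186, minus strand): tccggcccccacacgcactcacttccgcCT
Shq1 start 2 (chr6:100671139-100671168, minus strand): tcacttccgcctccgtccggaagcgctgTG
Commd6 start 2 (chr14:101640457-101640486, minus strand): gggcctaggtccggaagcggaagtgctgGC
Commd6 start 3 (chr14:101640448-101640477, minus strand): tccggaagcggaagtgctggccggtggaTC
Crlf2 start 1 (chr5:109558993-109559022, minus strand): cgtggccccgccccgtcgccccaaccccCG
Crlf2 start 2 (chr5:109558936-109558965, minus strand): gcggcctgggcgccctcgactcggaccgGC
Mecom start 2 (chr3:30013156-30013185, minus strand): agcagatcccctttaaagagacagttcaTG
Mecom start 3 (chr3:30013061-30013090, minus strand): gagaaggctctgggaggacctggggggcCG
Hipk1 start 2 (chr3:103791256-103791285, minus strand): tgcggagcgaagggccgggccgtggcccCG
Hipk1 start 3 (chr3:103791075-103791104, minus strand): cggctcgtgcggggggtatgatgacccgGC
The paired windows of Prpf38b, Srsf2, Shq1 and Commd6 overlap, because their starts lie less than 30 bases apart. A pyrimidine at -1 followed by a purine at +1, the usual initiator pair, was present in 8 of the 14 windows. TATAA was present between 40 and 20 bases ahead of the start in 1 of them, the upstream start of Srsf2. Over all regions with a known upstream sequence, the initiator pair (CA, CG, TA or TG) was present at 48.7% and TATAA at 0.945%, against 49.7% and 0.976% of all tandem starts.

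Of the 9836 regions, 2467 (25.1%) had a PSI difference over 0.1, in 1724 genes. Among all events of the table the share was 8.73%, among the shorter tandem starts 21.4%, among alternative first exons 7.72%, among tandem polyadenylation sites 29.4% and among cassette exons 1.48%. In B6-ob/ob the median PSI was 0.968 over all events, 0.987 over cassette exons and 0.0593 over alternative first exons, against 0.222 over the regions. Values near 0 or 1 leave less room for a difference, and PSI level was not matched between event types. The regions that were higher in NZO numbered 1185 and those that were lower 1282, against a background of 4.32% higher and 4.41% lower among all events. Because the pieces of an exon share 1 total, an even split follows in part from how the values are built: of 707 genes with at least 2 regions past 0.1, 689 had them in both directions. A PSI of at least 0.9 in 1 strain and at most 0.1 in the other was present in 13 regions. A difference over 0.2 was present in 1202 regions and one over 0.5 in 171. At the other end, 3078 regions (31.3%) differed by at most 0.01. The median absolute difference was 0.0262, and the median difference was 0.00013. A region was the major form (PSI over 0.5) in 1 strain only in 817 cases (8.31%, against 2.6% of all events), in NZO for 384 and in B6-ob/ob for 433.

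**Figure D1:**
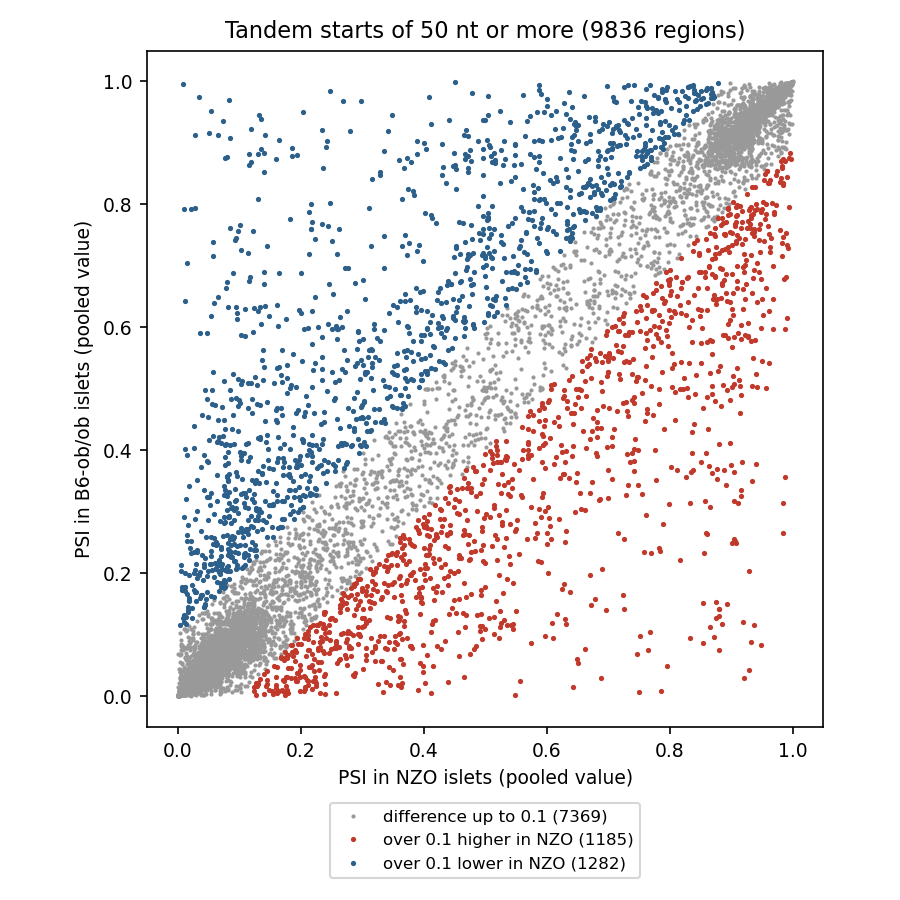
PSI of each of the 9836 tandem starts of 50 nt or more in NZO islets (x axis) and in B6-ob/ob islets (y axis), 1 point per region, both pooled values without units. Red points (1185) are over 0.1 higher in NZO, blue points (1282) over 0.1 lower, and grey points (7369) lie within 0.1 and crowd both ends of the diagonal.

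The 2 largest differences of all 9836 regions were in genes of pre-mRNA splicing. Prpf38b, a pre-mRNA splicing factor, had an exon with nearly all of its PSI at start 1 in NZO and at start 2 in B6-ob/ob, 17 nt apart. Start 2, whose 547 nt piece (chr3:108911164-108911710) holds the start codon, had a PSI of 0.00901 for NZO islets and 0.996 for B6-ob/ob islets, and start 1 had 0.991 in NZO, against 0.00413 in B6-ob/ob. Srsf2, an SR protein that promotes exon inclusion, had the same arrangement with starts 22 nt apart. Its 505 nt piece (chr11:116852568-116853072) had a PSI of 0.0351 for NZO islets and 0.974 for B6-ob/ob islets. By PSI, the more used start of Srsf2 in NZO was thus the one with the longer leader, behind the TATAA shown above. Transcript ends were not measured. Shq1, an assembly factor of the RNA-protein particles that modify ribosomal RNA, had 0.0281 in NZO, against 0.913 in B6-ob/ob at its 221 nt piece (chr6:100670919-100671139). In all 3 genes the piece that holds the annotated start codon was the less used one in NZO, and since both starts lie ahead of that codon, the annotated protein is the same.

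Among the 12 lowest differences of genes at 100 or more mean normalized counts were also Galt, Ncoa2, Irak4, Dcun1d1, Dnajb6 and Srxn1. Galt, the galactose-1-phosphate uridylyltransferase of galactose breakdown, had a PSI of 0.0536 for NZO islets and 0.952 for B6-ob/ob islets at its 400 nt piece. Ncoa2, a coactivator of nuclear receptors, had 0.0744 in NZO, against 0.936 in B6-ob/ob, with its starts 10 nt apart. Srxn1, the sulfiredoxin that repairs oxidized peroxiredoxins, had 0.0774 in NZO, against 0.876 in B6-ob/ob, with starts 8 nt apart. Irak4, a kinase of Toll-like receptor signalling, had 0.0860 in NZO, against 0.909 in B6-ob/ob at start 3. Its start 1 had 0.0850 in NZO, against 0.0876 in B6-ob/ob, so the low value at start 3 was level with that of a start little used in both strains. Dcun1d1, which helps attach NEDD8 to cullins, had 0.132 in NZO, against 0.945 in B6-ob/ob. In these 5 genes, too, the use moved to a start further upstream in NZO. Dnajb6, a chaperone, went the other way: start 1 had a PSI of 0.136 for NZO islets and 0.940 for B6-ob/ob islets, and starts 2 and 3 had 0.650 and 0.344 in NZO against 0.0612 and 0.0471 in B6-ob/ob. The mean start of Dnajb6 lay 238 nt from its most upstream start in NZO, against 28.5 nt in B6-ob/ob.

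**Figure D2:**
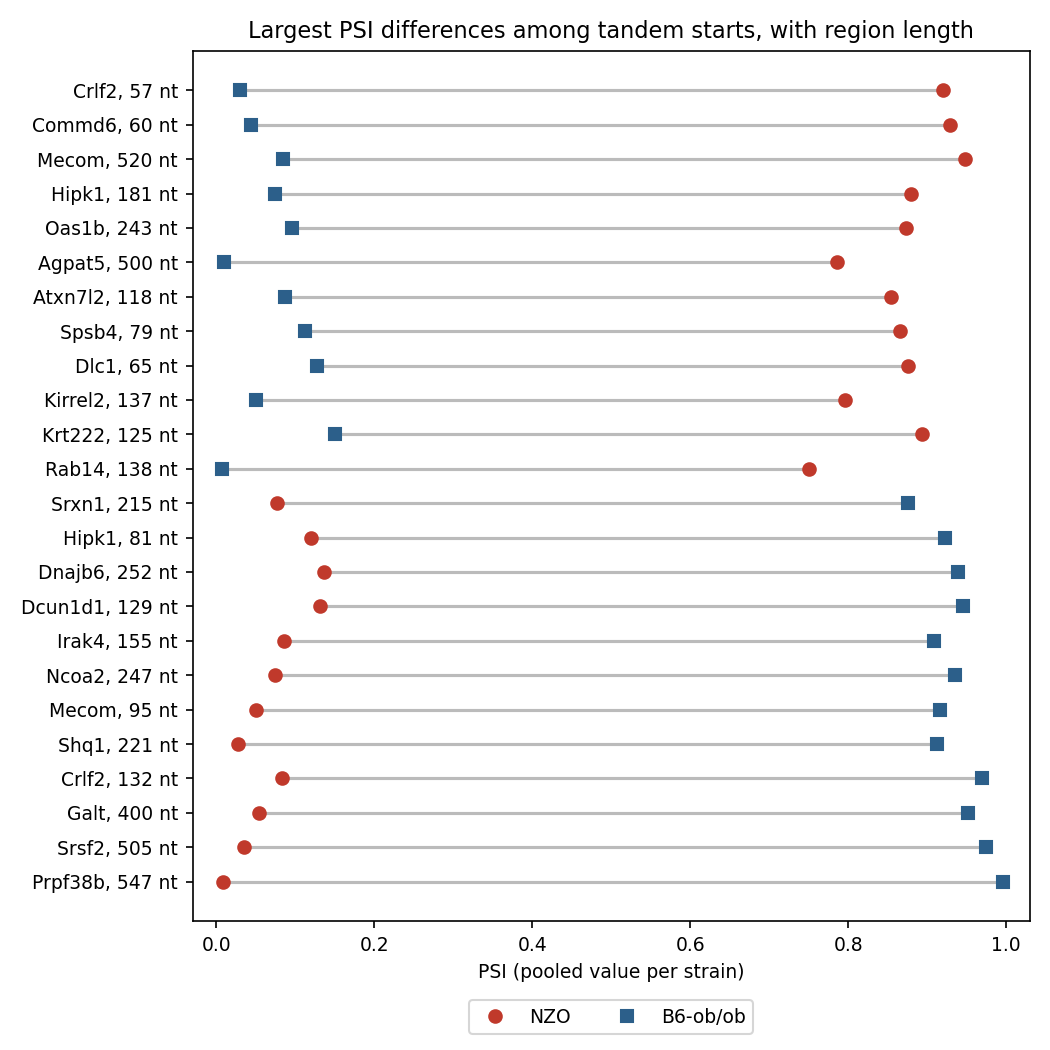
PSI (x axis, pooled value without unit) in NZO (red circles) and B6-ob/ob (blue squares) for the 12 highest and 12 lowest differences among genes at 100 or more mean normalized counts, with the length of each region. The highest is Crlf2 (0.921 in NZO, 0.0298 in B6-ob/ob) and the lowest Prpf38b (0.00901 in NZO, 0.996 in B6-ob/ob).

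Crlf2, Mecom and Hipk1 each had 1 piece among the 12 highest differences and its competing piece among the 12 lowest. Crlf2, a cytokine receptor chain for thymic stromal lymphopoietin, had a PSI of 0.921 for NZO islets and 0.0298 for B6-ob/ob islets at start 1, and 0.0833 in NZO, against 0.970 in B6-ob/ob at start 2, 57 nt downstream. Hipk1, a nuclear kinase, had 0.880 in NZO, against 0.0750 in B6-ob/ob at start 2, and 0.120 in NZO, against 0.923 in B6-ob/ob at start 3, 181 nt downstream. Mecom, a zinc finger transcription factor, moved downstream: start 3 had 0.948 in NZO, against 0.0840 in B6-ob/ob, and start 2 had 0.0507 in NZO, against 0.916 in B6-ob/ob. Rab14, a small GTPase of traffic between the Golgi and endosomes, had 0.750 in NZO, against 0.00760 in B6-ob/ob at start 1 (chr2:35200983-35201120), while start 4 had 0.225 in NZO, against 0.895 in B6-ob/ob. Start 1 had the highest PSI of the exon in NZO and start 4 in B6-ob/ob, and the mean start, weighted by each PSI over the exon's sum, differed by -97.5 nt (negative is upstream in NZO). Kirrel2, an adhesion protein of the immunoglobulin family that beta cells express, had 0.796 in NZO, against 0.0498 in B6-ob/ob at start 1, 137 nt ahead of start 2.

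For several of these genes the exchange of PSI spanned only a few nucleotides. By the study's methods, the same reference annotation served for both strains. Whether NZO sequence variants near such close starts, here and below, affected the PSI was not tested. Agpat5, an acyltransferase of phosphatidic acid synthesis, had a PSI of 0.785 for NZO islets and 0.00934 for B6-ob/ob islets at its 500 nt piece, but its starts lie 2 nt apart. Oas1b, an interferon-induced gene that GENCODE lists as a polymorphic pseudogene, had 0.873 in NZO, against 0.0960 in B6-ob/ob with starts 3 nt apart. Commd6, a COMM domain protein, had 0.929 in NZO, against 0.0435 in B6-ob/ob at start 3, which lies 9 nt from start 2. Dlc1, a RhoGAP, had 0.876 in NZO, against 0.127 in B6-ob/ob at start 2, which lies 14 nt from start 1. Krt222, a keratin, had 0.893 in NZO, against 0.150 in B6-ob/ob with starts 18 nt apart. Longer distances lay between the starts of Spsb4, a SOCS box protein (0.866 in NZO, against 0.113 in B6-ob/ob at start 1, 79 nt ahead of start 2), and Atxn7l2, a relative of ataxin 7 (0.855 in NZO, against 0.0872 in B6-ob/ob at start 2, 472 nt downstream of start 1).

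How far the use of starts moved was read from each exon's mean start. This is the mean position of its annotated starts, weighted by their PSI over the exon's sum. Moves are thus between annotated positions, and transcript ends were not measured. The starts moved are counted here and below as PSI over the exon's sum. In exons of more than 2 pieces this is a rescaled PSI, and a share only as far as the sum stays near 1. Of 6277 exons with at least 2 pieces and a region of 50 nt or more, 2165 (34.5%) had over 0.1 of their starts, so counted, at another position in the other strain. The share was 34.3% over all exons with adjoining tandem starts, most of which are the same exons. The mean start lay further upstream in NZO in 1144 and further downstream in 1021. The median size of the move was 7.61 nt. It was under 10 nt in 1216 exons, 10 to 50 nt in 649, 50 to 100 nt in 157 and 100 nt or more in 143. In the 153 exons with over 0.5 of their starts moved, the mean start lay further upstream in NZO in 99 and further downstream in 54. With the 124 of these exons whose gene had a mean normalized count of 100 or more, the numbers were 82 and 42. Among moves of 100 nt or more the directions were close to even, with 76 upstream and 67 downstream in NZO. The most used start differed between strains in 774 exons, lying further upstream in NZO in 417 and further downstream in 357.

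In genes at 100 or more mean normalized counts, the moves of the mean start ran from -1571 nt (negative is upstream in NZO) in Fat4 to 1362 nt in Spaca6. Fat4, Spaca6, Bcl2, Igf1r and Cryz were chosen after their values were seen, from the 10 largest moves in each direction and not by size alone. Lcorl (-896 nt), Gm8995 (-791 nt), Rtl5 (-641 nt), Pcdh17 (1112 nt) and Hook3 (501 nt) moved further than Bcl2 (-455 nt), Igf1r (248 nt) and Cryz (237 nt). Pax6, a transcription factor needed for islet hormone genes, had an exon with a larger share of its starts 2103 nt further upstream in NZO. Its start 1 had a PSI of 0.399 for NZO islets and 0.0400 for B6-ob/ob islets, and its start 2 (chr2:105673963-105674663) had 0.601 in NZO, against 0.960 in B6-ob/ob. Bcl2, an inhibitor of apoptosis, had 0.439 in NZO, against 0.0232 in B6-ob/ob at its start 1, which adds 1095 nt to the leader. Rab28, a small GTPase linked to cilia, had 0.526 in NZO, against 0.119 in B6-ob/ob at its start 1, 1615 nt ahead of start 2. Wwp2, a ubiquitin ligase, had 0.630 in NZO, against 0.251 in B6-ob/ob at its start 1, 442 nt ahead. The opposite direction held at an internal exon of Igf1r, the gene of the IGF-1 receptor. It lies behind the start codon of the receptor and holds no coding bases, and its start 1 had 0.0703 in NZO, against 0.228 in B6-ob/ob, 1579 nt ahead of start 2. Setd4, a SET domain methyltransferase, had 0.0549 in NZO, against 0.618 in B6-ob/ob at start 1, 630 nt ahead of start 2. Cryz, a quinone reductase, had 0.219 in NZO, against 0.771 in B6-ob/ob at start 1, 433 nt ahead.

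In most exons no annotated start codon lay between the starts. An annotated start codon lay ahead of the last start in 583 of the 6277 exons, and 168 of these (28.8%) had over 0.1 of their starts moved, against 1997 (35.1%) of the 5694 exons without one. Examples with a start codon between the starts were Kcnq1, Mrpl28 and Fat4. Kcnq1, a potassium channel subunit, had a PSI of 0.934 for NZO islets and 0.351 for B6-ob/ob islets at start 2, which lies behind an annotated start codon in the 297 nt piece ahead of it and holds another. Its mean normalized count of 101 was just over the minimum for naming. Mrpl28, of the large mitochondrial ribosomal subunit, had 0.146 in NZO, against 0.402 in B6-ob/ob at start 2, which lies behind its annotated start codon. Fat4, a very large cadherin, had 0.541 in NZO, against 0.934 in B6-ob/ob at start 2, behind the 4002 nt piece that holds the start codon and most of that exon's coding bases.

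**Figure D3:**
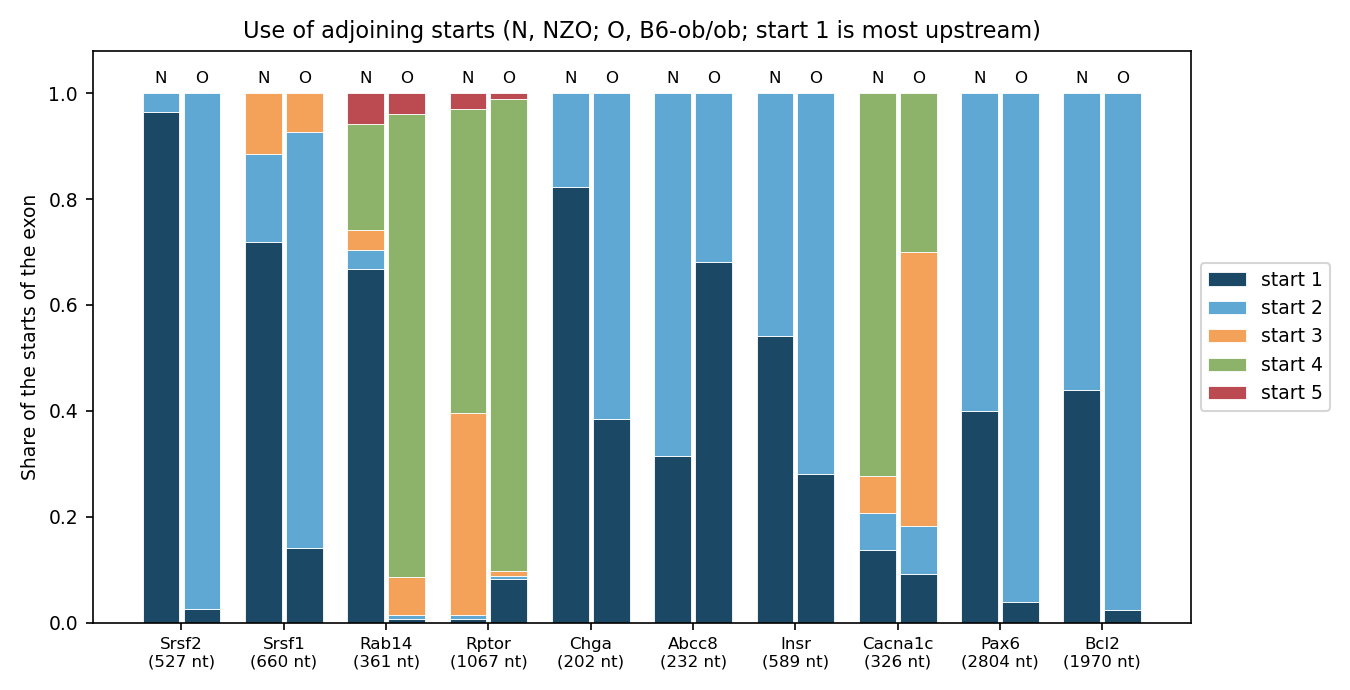
Share of an exon's starts at each position (y axis, PSI divided by the exon's sum) for 10 genes (x axis, with the summed length of the pieces), NZO bar left (N) and B6-ob/ob bar right (O), coloured from the most upstream start. In Srsf2 the upstream start takes 0.965 of the PSI in NZO, against 0.0262 in B6-ob/ob, and in Pax6 it takes 0.399 in NZO, against 0.0400 in B6-ob/ob. For Rab14 and Cacna1c, whose PSI values are not shares, the bars show rescaled PSI only.

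Genes of insulin secretion and exocytosis held the highest share among the 14 gene lists when counted by genes with a region past 0.1. Of 39 listed genes with such a region, 17 (43.6%) had 1 past 0.1, against 28.6% of all 6021 genes, and 28 of 68 regions were past 0.1 (16 higher and 12 lower in NZO). Counted by exons with over 0.1 of their starts moved, they had 18 of 41 (43.9%), against 34.5% of all 6277 exons, while histone-modifying enzymes had 24 of 52 (46.2%) and Zfp genes 55 of 125 (44.0%). The median absolute difference of their regions was 0.0405, against 0.0262 over all regions. Chrm3, the muscarinic receptor through which acetylcholine raises insulin secretion, had a PSI of 0.0105 for NZO islets and 0.792 for B6-ob/ob islets at its 581 nt piece, with starts 3 nt apart. Cacna1c, the pore subunit of an L-type calcium channel, had 0.0813 in NZO, against 0.633 in B6-ob/ob at start 3 and 0.839 in NZO, against 0.369 in B6-ob/ob at start 4. That places start 4 as its major one in NZO and start 3 as its major one in B6-ob/ob, 156 nt apart. Abcc8, the sulfonylurea receptor of the beta cell potassium channel, had 0.685 in NZO, against 0.319 in B6-ob/ob at start 2 (chr7:46179802-46180017), 16 nt downstream of start 1, with a mean normalized count of 41573.

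Beta cell identity and hormone genes had regions past 0.1 in 5 of 18 genes (27.8%, against 28.6% of all genes), with 5 regions higher and 6 lower in NZO. They included Chga, Tcf7l2, Pax6 (above) and Nkx2-2. Chga, the granule protein chromogranin A with a mean normalized count of 576314, had a PSI of 0.177 for NZO islets and 0.614 for B6-ob/ob islets at start 2 and 0.823 in NZO, against 0.386 in B6-ob/ob at start 1, 17 nt ahead. Tcf7l2, a Wnt pathway transcription factor tied to type 2 diabetes, held 8 pieces. Its start 1 had 0.0776 in NZO, against 0.435 in B6-ob/ob, its start 2 had 0.740 in NZO, against 0.396 in B6-ob/ob, and its start 3 had 0.263 in NZO, against 0.143 in B6-ob/ob. Its start 8, a piece of coding sequence, had 0.0770 in NZO, against 0.206 in B6-ob/ob. Start 5 of Tcf7l2 had 0.0762 in NZO, against 0.0938 in B6-ob/ob, and start 7 had 0.0775 in NZO, against 0.0924 in B6-ob/ob. The NZO values of starts 1 and 8 were thus level with those of starts little used in both strains. Whether they reflect any use was not tested.

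Among other genes that the study's text names, Gnas, the stimulatory G protein locus, had regions past 0.1 in 2 first exons, at 0.670 in NZO, against 0.419 in B6-ob/ob in one and 0.485 in NZO, against 0.325 in B6-ob/ob in the other. Myt1l, a neuronal zinc finger factor, had 0.709 in NZO, against 0.974 in B6-ob/ob at start 2, 17 nt behind start 1. Dusp12, a dual-specificity phosphatase, had 0.516 in NZO, against 0.644 in B6-ob/ob at start 2.

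In insulin, mTOR and AMPK signalling, 6 of 22 genes (27.3%, against 28.6% of all genes) held a region past 0.1. Pik3r1, the regulatory subunit of phosphatidylinositol 3-kinase, had a PSI of 0.0360 for NZO islets and 0.591 for B6-ob/ob islets at its 237 nt piece, with starts 4 nt apart. Rptor, the scaffold of mTOR complex 1, had 0.391 in NZO, against 0.00978 in B6-ob/ob at start 3, 134 nt ahead of start 4, which had 0.587 in NZO, against 0.905 in B6-ob/ob. Insr, the insulin receptor, had 0.541 in NZO, against 0.280 in B6-ob/ob at start 1, 66 nt ahead of start 2. Of the list's 8 exons with over 0.1 of their starts moved, 4 lay further upstream and 4 further downstream in NZO. Start 1 of Rptor had 0.00747 in NZO, against 0.0836 in B6-ob/ob.

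Among SR proteins, hnRNPs and tissue splicing factors, 7 of 39 genes (17.9%) held a region past 0.1, below the 28.6% of all genes, Srsf2 above included. Srsf1, another SR protein, had a PSI of 0.725 for NZO islets and 0.143 for B6-ob/ob islets at start 1, 345 nt ahead of start 2, which had 0.166 in NZO, against 0.790 in B6-ob/ob. Elavl1, which binds AU-rich elements of mRNA, had 0.564 in NZO, against 0.911 in B6-ob/ob at start 1, 327 nt ahead of start 2. Rbfox2, which regulates tissue-specific exons, differed less, at 0.208 in NZO, against 0.326 in B6-ob/ob at start 2.

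Histone-modifying enzymes had a region past 0.1 in 19 of 48 genes (39.6%, against 28.6% of all genes), with 12 regions higher and 14 lower in NZO. Besides Setd4, Sirt3, a mitochondrial deacylase, had a PSI of 0.224 for NZO islets and 0.743 for B6-ob/ob islets at start 2, 13 nt behind start 1. Hdac10, a polyamine deacetylase, had 0.0478 in NZO, against 0.484 in B6-ob/ob at the last of 5 starts. Zinc finger genes named Zfp had 42 of 118 genes (35.6%), led by Zfp110, with 0.390 in NZO, against 0.881 in B6-ob/ob at start 1. Ubiquitin conjugation and ligase genes had 16 of 50 (32.0%), close to the 28.6% of all genes. Besides Wwp2, Ddb2, which recognizes DNA damage, had 0.3997 in NZO, against 0.708 in B6-ob/ob at start 3, and Skp2, an F-box protein, had 0.101 in NZO, against 0.398 in B6-ob/ob at start 1. Rab, Arf and Arl GTPases had 11 of 36 (30.6%), also close to that share, with Rab14 the largest. Endocytosis and membrane recycling genes had 8 of 41 (19.5%), below the share of all genes. Among these, Git2, which acts on Arf GTPases, had 0.726 in NZO, against 0.255 in B6-ob/ob at start 3. Eps15, an adaptor of clathrin-coated pits, had 0.453 in NZO, against 0.858 in B6-ob/ob at start 2.

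The remaining 5 lists also lay below the share of all genes. Cytosolic ribosomal proteins had 2 of 47 genes (4.26%), Rpl10 and Rpl15, each just past 0.1: Rpl10 had a PSI of 0.974 for NZO islets and 0.854 for B6-ob/ob islets and Rpl15 had 0.392 in NZO, against 0.503 in B6-ob/ob. Genes named for respiratory chain subunits, assembly factors included, had 3 of 47 (6.38%), of which Ndufaf2 and Ndufaf6 are assembly factors and Atp5j is a subunit of ATP synthase. Mitochondrial ribosomal proteins had 5 of 44 (11.4%), among them Mrpl18 with 0.0620 in NZO, against 0.246 in B6-ob/ob, and Mrps22 with 0.943 in NZO, against 0.792 in B6-ob/ob. Unfolded protein response genes had 5 of 27 (18.5%), among them Trib3, a pseudokinase induced by stress, with 0.512 in NZO, against 0.869 in B6-ob/ob. Ern1, a sensor of unfolded proteins, had 0.149 in NZO, against 0.293 in B6-ob/ob at start 3, and Herpud1, of the degradation of misfolded proteins, had 0.0680 in NZO, against 0.222 in B6-ob/ob at start 2. Glucose and lipid metabolism had 6 of 31 (19.4%). Acadvl, which starts the oxidation of long fatty acids, had 0.496 in NZO, against 0.752 in B6-ob/ob with starts 3 nt apart, and Pfkp, a phosphofructokinase, had 0.0742 in NZO, against 0.261 in B6-ob/ob at start 1.

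**Figure D4:**
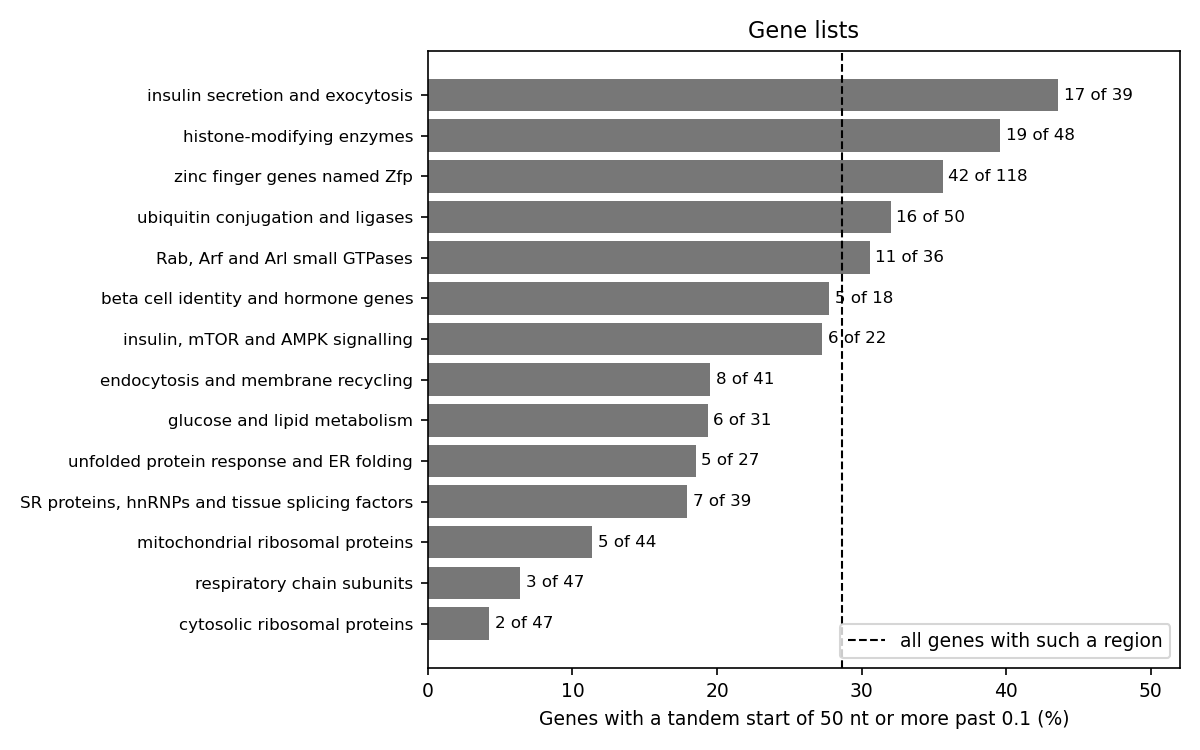
Share of each list's genes with a tandem start of 50 nt or more that had one past 0.1 (x axis, percent), with the counts beside the bars; the dashed line is the share over all such genes (28.6%). Insulin secretion and exocytosis has the longest bar (17 of 39 genes) and cytosolic ribosomal proteins the shortest (2 of 47).

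The gene's level moved with these shares. Of regions in genes under 100 mean normalized counts, 36.8% were past 0.1, and 36.1% at 100 to 300. The share was 26.9% at 300 to 1000, 15.7% at 3000 to 10000 and 11.3% over 10000. The minimum of 100 for naming therefore keeps a class with about the same share as the genes under it. Several genes named above lie in that class, among them Mecom (156), Fat4 (138), Bcl2 (175) and Tcf7l2 (176). The median level was 6293 for the regions of cytosolic ribosomal proteins, 8371 for the unfolded protein response and 2409 for insulin secretion and exocytosis, against 1124 over all regions. Insulin secretion and exocytosis had a higher share past 0.1 and a higher level than all regions. The part of the level in the shares was not tested, for this list or any other.

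Length and content also went with the share. It was 16.8% for regions of 50 up to 100 nt, 26.7% at 100 up to 200 nt, 31.0% at 200 up to 500 nt and 32.3% at 500 nt or more. Close to the minimum length it was 16.6% for the 890 regions of 50 to 59 nt and 18.7% for the 1070 tandem starts of 40 to 49 nt. The most upstream pieces of an exon had 21.6% and the most downstream 26.3%, with a median PSI at 0.0830 in NZO, against 0.0797 in B6-ob/ob for the most upstream and 0.376 in NZO, against 0.391 in B6-ob/ob for the most downstream. Regions of protein-coding genes that hold an annotated start codon had 26.1% and those with no annotated coding bases had 23.8%, whereas regions of genes not annotated as protein coding had 36.1% (184 of 510).

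**Figure D5:**
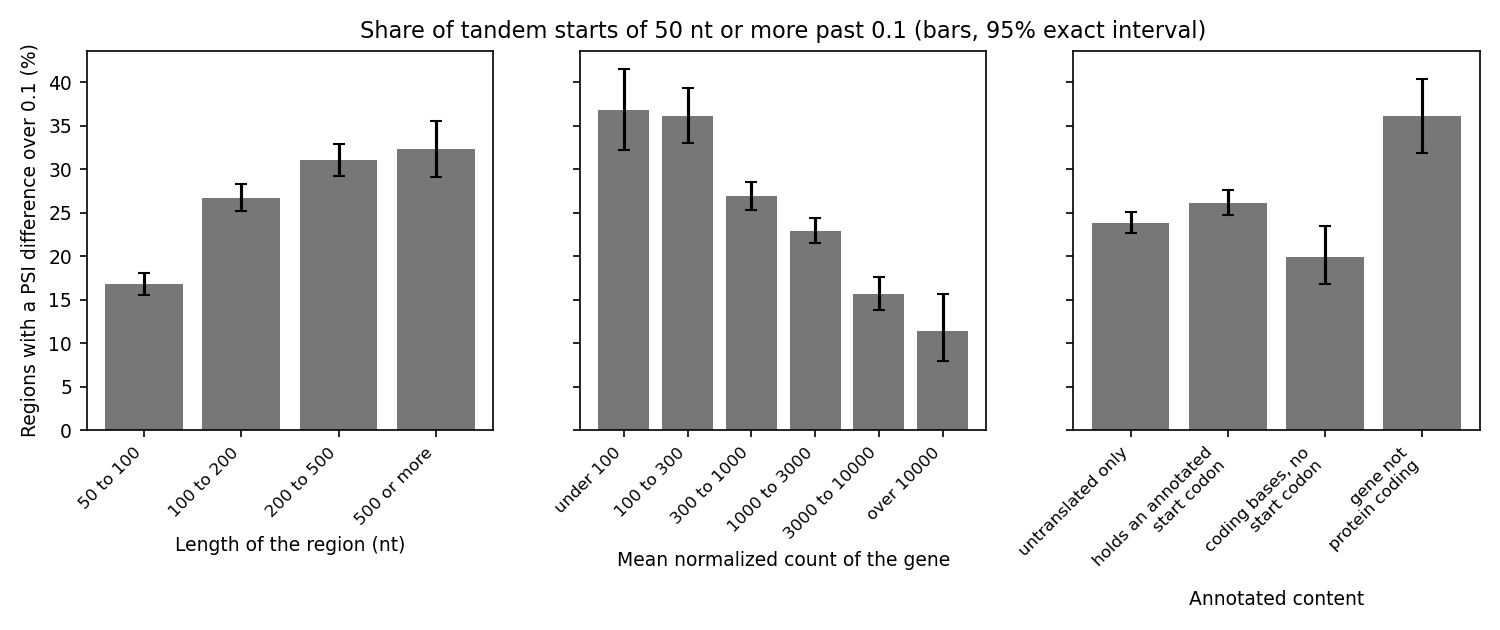
Share of tandem starts of 50 nt or more with a PSI difference over 0.1 (y axis, percent) by region length, mean normalized count of the gene and annotated content (x axes), with 95% exact binomial intervals that cover counting error only and treat pieces as independent. The share is lowest at 50 up to 100 nt (16.8%) and in genes over 10000 (11.3%).

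In base composition the regions past 0.1 were close to the others. Their median GC content was 65.5%, against 65.8% in the others, and their ratio of observed to expected CpG was 0.838, against 0.844. TATAA stood ahead of 0.752% of them and of 1.01% of the others, and the initiator pair at 49.8% and 48.3%. Among regions of protein-coding genes that lie wholly ahead of the gene's annotated start codons, ATG occurred in 45.2% of the 1090 past 0.1 and in 43.3% of the 3639 others. The 171 regions past 0.5 lay further from the others in part, with a median GC content of 63.7% and a CpG ratio of 0.757. ATG occurred in 58.0% of the 69 of them that lie wholly ahead of the start codons. The initiator pair was present at 47.8% of those with a known window. The share past 0.1 was higher in longer regions, and length was not matched in these comparisons.

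Genes with a start past 0.1 were set beside the other genes with such a region for the rest of their splicing. A tandem polyadenylation site past 0.1 was present in 534 of 1208 genes (44.2%) with a start past 0.1, against 1182 of 3115 (37.9%) of the others. For cassette exons the shares were 210 of 1605 (13.1%) and 379 of 4087 (9.27%), for retained introns 121 of 619 (19.5%) and 222 of 1723 (12.9%), and for alternative first exons 23 of 245 (9.39%) and 37 of 595 (6.22%). Each share was higher in the genes with a start past 0.1. Gene level, which went with the share of starts past 0.1, was not matched between these groups.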

How the data were processed

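RNAseq libraries of islets from 5 NZO and 5 B6-ob/ob mice were mapped to strains by the sample labels. Salmon, DESeq2 and mm10 appear in the submitters' processing notes and Whippet in the study's methods, with versions not given in the sources used here. In the deposited splicing table the authors give PSI as a fraction, 1 pooled value per strain. In the deposited gene table they give a mean signal per gene, the normalized count averaged over all libraries. Their columns of ∆PSI, probability, log2 fold change and adjusted p were not used, nor were the sheets of significant events and genes. With no values per mouse, depth and error are unknown and no test was run. Whether reads were counted by strand is not stated, so overlapping antisense genes cannot be told apart.

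Regions were tandem start events of at least 50 nt, compared by pooled PSI (Python 3.11.15, pandas 2.3.3, scipy 1.17.1, figures with matplotlib 3.10.9). Adjoining pieces of a gene were joined into exons. Annotation and sequence came from GENCODE M21 and from the RefSeq promoter table (GRCm38). The 2 sources did not differ at any shared base. The sequence is that of C57BL/6J, and NZO alleles were not used. The study's methods name the mm10 annotation, of the same C57BL/6J reference, for all steps. The PSI values of both strains thus rest on a reference that is not NZO. Whether NZO variants affected them was not tested. Upstream sequence of 100 bases was known for 7523 of 9836 regions, under 80%, so that the searches for the CCAAT box and the GC box are void and not given, and the E-box was not searched for. The window for TATAA was known for 8150. The counting was tested on simulated data. Named genes were the 12 highest and 12 lowest differences at a mean normalized count of at least 100, up to 3 genes per list, up to 5 genes with several regions past 0.2, genes of the study's text past 0.1 and up to 10 regions with PSI of at least 0.9 in 1 strain and at most 0.1 in the other. Sequences are from the 5 highest and 5 lowest where known. The regions, the gene lists and the rules were chosen with earlier results of these data known. The alternatives changed the limit, gene level, length, mean PSI, gene type and counting. 1 gene that the rule names is not reported here.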

Additional observations from a re-analysis of the deposited data

How the results depend on the processing

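No paired analysis was possible because the table holds 1 pooled value per strain, and for the same reason no replicate could be left out. There were 11 alternatives for the count of regions past 0.1 and for its direction and 10 for the major forms. Of these, counting coordinates once and asking for a mean PSI of 0.05 to 0.95 could not change the counts or the direction. No coordinates repeat, and a region past 0.1 or major in 1 strain only always has such a mean. Asking for that mean left 6936 regions, of which 35.6% were past 0.1 and 11.8% were major in 1 strain only. With the other alternatives, the count of 2467 became 1202 at a limit of 0.2, 1060 at a length of at least 200 nt and 1481 with only the longest region per gene. It stayed within 1.5 times otherwise. The fall follows from the stricter limit and the fewer regions counted. The count of 817 regions that were the major form in 1 strain only became 329 at 200 nt, 504 with the longest region per gene and 292 when PSI over 0.6 and under 0.4 was asked for. Of the regions past 0.1, 48.0% were higher in NZO. The share was 45.4% at 200 nt and 44.5% with the longest region per gene, and 46.4 to 49.2% otherwise. Counting 1 piece per exon, an alternative added after seeing the data, gave 1749 regions, 46.7% of them higher in NZO. Limits: PSI values of neighbouring pieces are complementary, gene level went with the share past 0.1, and no value carries an error.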

Other observations

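Regions of genes outside the protein-coding annotation were a small group with a larger share past 0.1 (36.1%). Their median absolute PSI difference was 0.0526, against 0.0238 for regions of protein-coding genes with no annotated coding bases, and 26 of 510 differed by over 0.5. The PSI was over 0.5 in 1 strain only for 13.3% of them. Level was not matched between the 2 classes.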
